A study of Mus musculus with 6 samples.

Results

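Chemokine ligands are small secreted proteins that guide immune cells through tissue. Their genes were followed in colon tissue of wild-type mice, 3 at rest (mice 15, 17 and 19) and 3 labelled stressed (mice 10, 11 and 13; restraint of 30 min over 3 days), with 1 poly(A) RNA-seq library per mouse. Members were all genes whose mouse symbol is Ccl, Cxcl, Cx3cl or Xcl followed by a number and at most 1 letter, which gave 38 of the 43432 gene identifiers in the deposited count table. Restraint is also written in the protocol field of the resting mice, and groups were assigned by the treatment label alone. Age, sex, strain background, the part of the colon taken, and the time between restraint and collection are not given in the labels.

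Chemokines are grouped by the spacing of the cysteines near the start of the mature protein, and each binds 1 or a few receptors with 7 membrane-spanning helices on the cells it attracts. Some are made constantly and place cells at rest: in gut, CCL28 and CCL25 from the epithelium draw antibody-secreting and T cells, and CXCL12 and CXCL13 from stroma organise lymphoid cells. Others are induced in inflammation, above all the CXCR2 ligands that recruit neutrophils and the interferon-inducible CXCR3 ligands that recruit T cells.

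The coding sequence at the signature cysteines is shown for 1 gene of each subfamily, because it is what defines the family; the cysteine codons are in capitals. Sequences are from GENCODE M21 transcripts of the mm10 assembly, on the coding strand and 5′ to 3′. Ccl6 and Ccl28-type CC ligands have adjacent cysteines, CXC ligands have 1 residue between them, and Cx3cl1 has 3. Xcl1 has 1 cysteine in place of the pair.
Ccl6 (CC): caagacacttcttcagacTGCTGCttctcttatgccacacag
Cxcl12 (CXC): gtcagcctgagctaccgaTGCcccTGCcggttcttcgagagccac
Cx3cl1 (CX3C): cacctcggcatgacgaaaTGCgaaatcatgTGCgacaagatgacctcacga
Xcl1 (C): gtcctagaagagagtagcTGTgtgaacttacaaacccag

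Libraries held 16425525 to 19819267 counts, so 3 counts, the limit that a count of 0 allows, stand for 0.154 to 0.182 CPM (counts scaled to library size with TMM factors; counting error only). The ligand genes together held 12703 to 15587 counts per library. Epithelial markers were abundant in all 6 libraries, with Epcam, an epithelial adhesion molecule, at 1969.6 CPM or more. The colon position marker Hoxa13 was at 15.5 and 11.6 CPM in resting mice 15 and 17, at 1.82 CPM in resting mouse 19 and at 0.608 to 2.26 CPM in the stressed mice. Its part in the results below was not tested. In whole tissue, fewer cells of a type and less RNA per cell cannot be told apart.

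At rest, Ccl6 was by far the most abundant chemokine ligand transcript. Its level per length was 244 ± 22.5 CPM per kilobase of merged exons (SD, n = 3), 9.88 times that of Cx3cl1, the next in order. Ccl6, a CC ligand of rodents that acts through CCR1, took 54.3% to 56.9% of all ligand counts in the resting libraries. Its CPM was 442, 476 and 396 in resting mice 15, 17 and 19. Ccl6 with Cx3cl1, Ccl28 and Cxcl12 made up 83.2% to 86.8% of ligand counts at rest.

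Behind Ccl6 came Cx3cl1 with 24.7 ± 0.615, Ccl5 with 23.2 ± 5.96 and Ccl28 with 17.4 ± 2.06 CPM per kilobase. Cx3cl1 encodes fractalkine, which is held on the cell surface until cut free, Ccl5 encodes a ligand made by T cells and natural killer cells, and Ccl28 encodes the ligand that draws IgA-producing cells to mucosa. The resting ranges of Ccl5 overlapped those of both its neighbours in the order. Next were Ccl8 with 13.03 ± 0.596, Ccl9 with 10.04 ± 1.14, Ccl11 with 5.73 ± 0.730 and Cxcl12 with 5.14 ± 1.36 CPM per kilobase. Cxcl9 (4.30 ± 1.58) and Cxcl13 (4.01 ± 0.815) closed the first 10. Of the 25 neighbouring pairs in the order of the 26 genes found in every resting mouse, 7 had resting ranges that did not overlap, among them Ccl6 over Cx3cl1 and Ccl28 over Ccl8. The middle of the order is therefore loose.

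**Figure D1:**
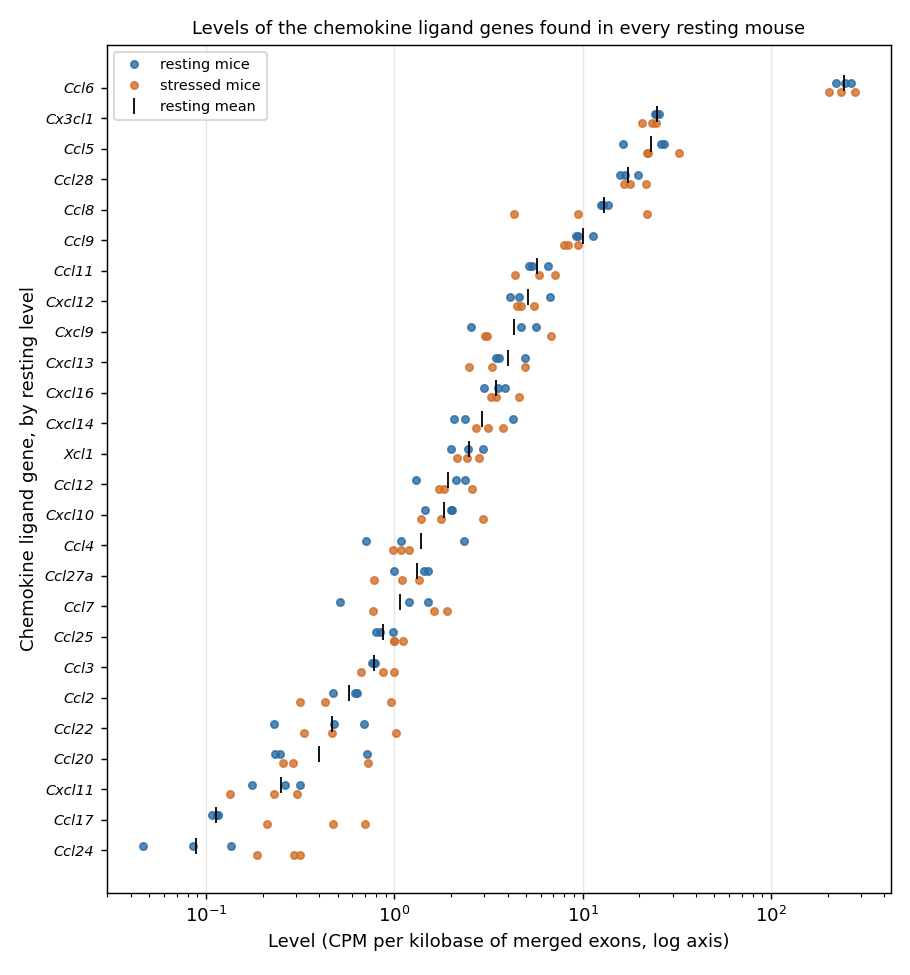
Level of the 26 chemokine ligand genes with at least 1 count in each resting mouse, in CPM per kilobase of merged exons on a log axis, with 1 point per mouse (resting and stressed) and a tick at the resting mean. Ccl6 stands alone at 244, most genes lie between 0.25 and 25, and points of the groups intermix for most genes.

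Without division by length the order changed for genes with long or short models. By CPM alone Cxcl12 moved from rank 8 to 4 and Ccl25 from 19 to 10, while Ccl8 moved from 5 to 9, and 8 of the first 10 were shared. Merged exons count every annotated isoform, so the level per length of Cxcl12 and Ccl25, with 8176 and 7445 bases, is a low estimate where shorter isoforms carry the reads.

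Neighbouring genes differed widely in level. Ccl5, Ccl9, Ccl6, Ccl3 and Ccl4 lie side by side (mm10 chr11:83525778-83664683), yet Ccl6 was at 24.3 times the level per length of Ccl9 and 313 times that of Ccl3. A further cluster on the same chromosome (chr11:82035571-82305690) holds Ccl2, Ccl7, Ccl11, Ccl12, Ccl8 and Ccl1, from 13.03 CPM per kilobase for Ccl8 down to 1 count in all resting libraries for Ccl1. On chromosome 8 (chr8:94745590-94812036) Cx3cl1 at 24.7 CPM per kilobase lies between Ccl22 at 0.467 and Ccl17 at 0.113. The block of neutrophil-attracting genes Cxcl5, Cxcl3, Cxcl15, Cxcl1 and Cxcl2 (chr5:90759360-90905938) held 11 counts in the 3 resting libraries together, and 25 in all 6. The interferon-inducible genes Cxcl9, Cxcl10 and Cxcl11 (chr5:92321347-92365485), on the same chromosome, held 940 counts at rest.

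Among the genes without counts at rest were neutrophil-attracting ligands. Cxcl2, Cxcl3, Ccl19, Ccl21a, Ccl21b, Ccl26 and Ccl27b had no count in any resting library. Of these 7 genes, 5 had no count in any of the 6 libraries; the exceptions were Cxcl2, with 1, 1 and 3 counts in stressed mice 10, 11 and 13, and Ccl21a, with 1 count in mouse 13. Another 5 were seen in only some resting libraries: Cxcl1 had 0, 5 and 0 counts in resting mice 15, 17 and 19, and Cxcl5, Cxcl15, Cxcl17 and Ccl1 had at most 2 in a resting library. The neutrophil-attracting group of 5 genes had none in resting mouse 19 and at most 8 in a library. Neutrophil markers were also near 0: S100a8 and S100a9 were at 0.163 CPM or less in every library, Ngp had no count, and the 9 markers summed to 0.615 to 1.996 CPM. With a minimum of 10 counts in each resting library, 19 of the 38 genes were detected, and 31 had a count in any resting library.

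Zero has another reading for the genes on chromosome 4. Ccl27a, Ccl21b, Ccl27b, Ccl19 and Ccl21a lie in a repeated stretch (chr4:41769467-42773993), and their transcripts were searched for 50-base stretches found in no other annotated gene. Such stretches made up 0% of Ccl21b, 1.86% of Ccl27b, 28.4% of Ccl21a, 48.0% of Ccl19 and 55.0% of Ccl27a, against 94.2% of Cxcl2, 95.7% of Cxcl3 and 100% of Cxcl1 and Ccl26. A read that fits several genes may be left out or placed on any of them; the sources used here do not say how such reads were counted. So the zeros of Ccl19 and the Ccl21 genes, which guide CCR7-bearing T cells and dendritic cells into lymphatics and lymphoid tissue, cannot be read as absence, whereas those of Cxcl3 and Ccl26 are not of this kind. The lymphatic markers Lyve1, Prox1 and Mmrn1 were all measured, at 6.86 CPM or more in each library.

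The coding sequences of Ccl21a and Ccl21b, and of the predicted genes Gm10591, Gm13304 and Gm21541, have 399 bases before the stop codon. Each of the other 4 differs from Ccl21a by 2 bases, T84A and C194T, counted from 1 at the first base of the start codon, with the base of Ccl21a first. The stretch around the first of these, coding bases 54 to 114, is shown with the differing base in capitals.
Ccl21a: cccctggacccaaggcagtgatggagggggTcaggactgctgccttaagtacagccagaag
Ccl21b: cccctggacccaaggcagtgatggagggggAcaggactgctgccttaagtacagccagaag
Gm10591 had 1, 2 and 1 counts in resting mice 15, 17 and 19 and 30, 2 and 0 in stressed mice 10, 11 and 13, so nearly all of its counts came from mouse 10. The gene was picked for mention because of these counts. Among tested members, Cxcl11, Cxcl16 and Xcl1 also share sequence. Of their 50-base stretches, 59.6%, 83.1% and 89.2% in that order were found in no other annotated gene. Cxcl11 shares with the predicted gene Gm2673, which had no counts, and Cxcl16 with Zmynd15 (402 counts in all libraries against 1154 for Cxcl16). Xcl1 shares with Gm20743 (86 counts in all libraries against 137 for Xcl1).

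**Figure D2:**
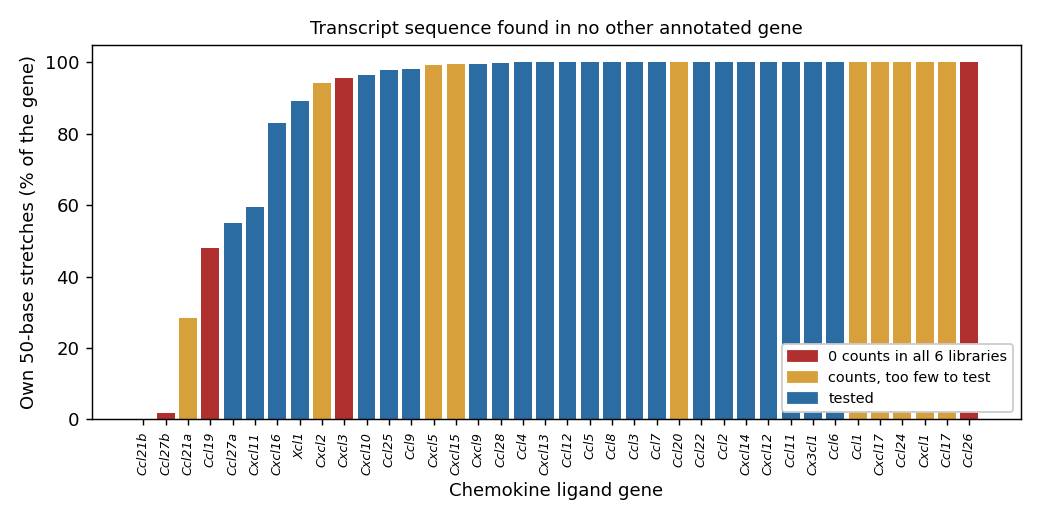
Share of each gene's 50-base transcript stretches that occur in no other annotated gene (bars, % of the gene), for all 38 chemokine ligand genes, coloured by whether the gene was tested, had too few counts or had 0 counts in all 6 libraries. Ccl21b (0%), Ccl27b (1.86%), Ccl21a (28.4%) and Ccl19 (48.0%) have the least sequence of their own.

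The letters of the NF-kB consensus, the site of the factor that switches on many inflammatory chemokines, were looked for on both strands of the 250 bases before each start site (RefSeq, GRCm38.p6; 27 of the 38 genes matched by symbol). They were found in 7 of the 33 promoters of these genes, 21.2%, each of a different gene, against 7.25% of all 32851 promoters in the table. Of these 7 genes, Cxcl1, Cxcl2, Cxcl3, Ccl20 and Ccl1 had too few counts to test; Cxcl10 and Ccl9 were tested. Of the 20 genes without the letters, 6 had too few counts. The windows of the genes with too few counts to test are shown, with the match in capitals. Among these, Ccl20 had counts in every library, 29 in all at rest. The window of Ccl9, which had 1581 counts at rest, is not shown, and those of Cxcl10 are in its sequence further below. The windows of Cxcl1, Cxcl2 and Cxcl3 hold the same 11 letters, which contain overlapping matches on the 2 strands. A match is a description of the letters and not of binding.
Cxcl1 (chr5:90891162-90891196, + strand): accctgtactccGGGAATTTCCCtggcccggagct
Cxcl2 (chr5:90903790-90903824, + strand): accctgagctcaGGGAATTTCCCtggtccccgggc
Cxcl3 (chr5:90786016-90786050, + strand): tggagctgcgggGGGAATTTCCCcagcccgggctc
Ccl20 (chr1:83116674-83116707, + strand): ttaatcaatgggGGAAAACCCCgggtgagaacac
Ccl1 (chr11:82179986-82180020, - strand): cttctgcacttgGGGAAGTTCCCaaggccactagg

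Restraint left no chemokine ligand gene past the threshold. Of the 38 genes, 23 had enough counts to be tested with the other genes, and 0 passed an adjusted p of 0.05 by edgeR's quasi-likelihood test, where 5 of all 16119 genes did (0.031%). The smallest adjusted p among them was 0.718. DESeq2 and limma-voom also called 0, against 0.335% and 0.0186% of all genes, and edgeR without the filter on low counts called 0 against 0.588%. At an unadjusted p under 0.05 edgeR had 1 of 23, or 4.35%, against 6.92% of all genes tested, and the other tools had 0. Values were higher in stressed mice for 11 genes and lower for 12 (49% and 51% of all genes), with log2 fold changes from -0.34 to 0.39; the split was 10 to 13 with library totals in place of TMM scaling. Their median was -0.01, and that of all genes tested was -0.00. The groups did not overlap for 1 gene, 4.35%, against 12.7% of all genes tested; it was higher in stressed mice, as were 6.13% of all genes.

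The precision differed widely among the genes. For 17 of the 23 the 95% interval of the fold change excluded a 2-fold change in either direction, and for 9 it excluded 1.5-fold. The remaining 6, Ccl4, Ccl8, Ccl2, Cxcl11, Ccl7 and Ccl22, had intervals that reach past 2-fold on at least 1 side. For the 15 genes with too few counts, no change was detectable at this depth unless large.

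**Figure D3:**
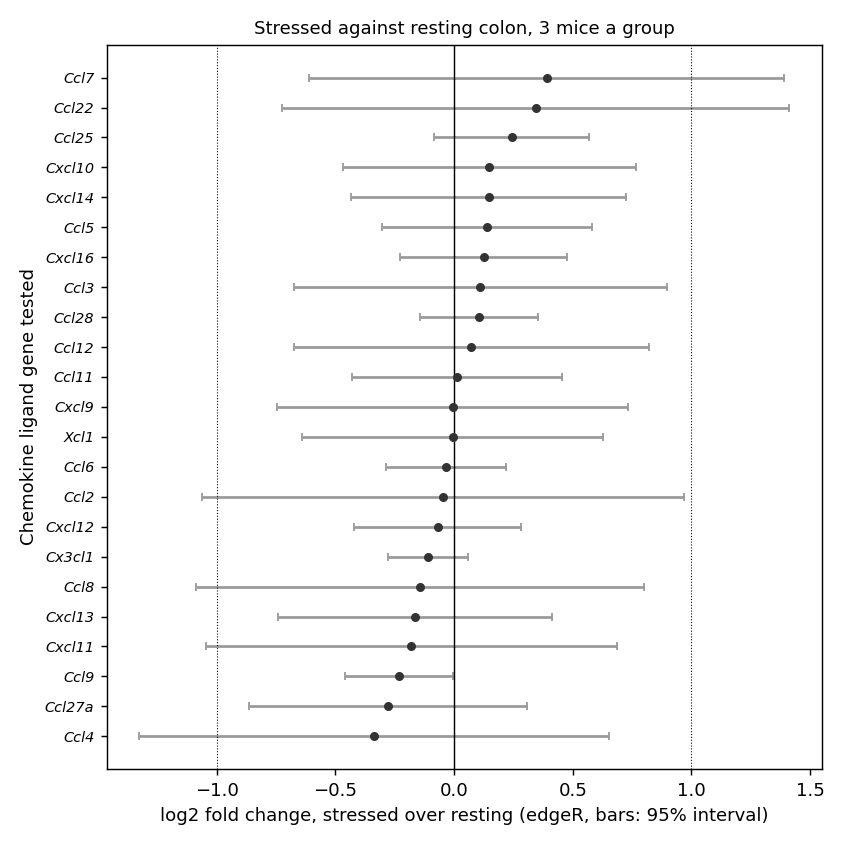
Log2 fold change of stressed over resting colon for the 23 chemokine ligand genes tested (points), with 95% intervals from edgeR (bars), a solid line at 0 and dotted lines at a 2-fold change. Points lie between -0.34 and 0.39 and nearly all bars cross 0; that of Ccl9 ends just below it.

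Among the macrophage inflammatory protein group of CC ligands, which attract monocytes, macrophages and activated T cells, Ccl6 reached 364, 500.1 and 419.7 CPM after restraint (mice 10, 11 and 13). The stressed mice lay on both sides of the resting ones, and the log2 fold change was -0.03 (95% limits -0.29 and 0.22). Ccl9, also a CCR1 ligand made by myeloid cells, had 34.6, 28.9 and 28.2 CPM at rest and 24.2, 25.3 and 28.6 CPM after restraint. Resting mouse 15 was the highest, and stressed mouse 13 lay inside the resting range. Its log2 fold change of -0.23 ± 0.10 (SE) had the smallest p of the family (edgeR, unadjusted 0.048, adjusted 0.718). The unadjusted p was 0.021 to 0.242 over 13 alternative settings, at or above 0.05 in 7 of them, and 0.242 without resting mouse 15.

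Ccl5 was at 26.1, 15.7 and 25.05 CPM at rest and 31.1, 20.98 and 21.3 CPM after restraint. Resting mouse 17 was low and stressed mouse 10 high, and the groups overlapped (log2 fold change 0.14, -0.30 to 0.58). T cell markers summed to their lowest in resting mouse 17 as well, 102 CPM against 106 to 146 CPM in the other mice. Gzma and Gzmb were the largest terms of that sum in mouse 17, at 32.1 and 18.7 CPM, and both were lowest there. Not all markers were: Cd4 was highest in mouse 17, at 4.23 CPM, and Cd3e and Trac were lowest in stressed mouse 11. Ccl3 and Ccl4, the macrophage inflammatory proteins, were scarce. Ccl3 had 10, 10 and 11 counts at rest and 10, 14 and 11 after restraint, and Ccl4 had 26, 8 and 13 counts at rest and 14, 12 and 13 after restraint.

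No ligand of the mucosal epithelium passed the threshold. Ccl28 was at 76.1, 95.4 and 81.2 CPM at rest and 80.2, 105.3 and 86.6 CPM after restraint. The order of the mice was mixed, and the log2 fold change was 0.11 (-0.14 to 0.36), so a 1.5-fold change lies outside its interval. Ccl25, which in mouse gut is best known from the small intestine and draws CCR9-bearing T cells, had 5.98, 6.22 and 7.30 CPM at rest and 7.38, 7.41 and 8.32 CPM after restraint. It was the 1 tested ligand gene whose groups did not overlap, by a margin of 0.0867 CPM between resting mouse 19 and stressed mouse 10. Its log2 fold change was 0.24 ± 0.15 (edgeR, adjusted p = 0.789), with an unadjusted p of 0.067 to 0.297 over the alternatives.

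Most tested markers of small intestine had higher values in stressed mice, as Ccl25 did. Of 10 such markers 6 were tested, 4 had higher and 2 lower values, and none passed over all genes; the sum of the list was 114 to 123 CPM at rest and 129 to 174 CPM after restraint. Sis, sucrase-isomaltase, was at 23.9, 30.3 and 29.7 CPM at rest and 79.6, 34.6 and 56.3 CPM after restraint. Lct and Apoa4 were near 0 in both groups, at most 0.490 CPM. Alpi, intestinal alkaline phosphatase, went the other way, with 65.3, 66.4 and 59.2 CPM at rest and 56.7, 56.3 and 50.6 CPM after restraint. The part of these markers in the value of Ccl25 was not tested.

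Ccl20, which draws CCR6-bearing cells to lymphoid follicles in the gut wall, was under the filter, with 17, 6 and 6 counts at rest and 8, 19 and 6 after restraint. Cxcl14, found in many epithelia, had 4.36, 7.81 and 3.82 CPM at rest and 5.74, 6.92 and 4.98 CPM after restraint (log2 fold change 0.15, -0.43 to 0.73). Its resting mice spread more widely than its stressed mice.

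Of the membrane-anchored ligands, Cx3cl1 was the steadiest gene of the family. It had 95.3, 99.8 and 96.1 CPM at rest and 96.3, 92.2 and 81.3 CPM after restraint. Stressed mouse 13 was the lowest, and mouse 10 lay within the resting range. The log2 fold change was -0.11 ± 0.08, with the narrowest interval of the family (-0.28 to 0.06). Cxcl16 had 11.7, 10.7 and 9.01 CPM at rest and 9.90, 10.5 and 13.9 CPM after restraint. The proteases that cut both free had log2 fold changes of 0.04 (-0.13 to 0.20) for Adam10 and -0.03 (-0.22 to 0.15) for Adam17.

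Among stromal and lymphoid ligands, Cxcl12, which acts through CXCR4 and is scavenged by ACKR3, had 37.7, 54.7 and 33.7 CPM at rest and 36.6, 38.4 and 45.3 CPM after restraint. Resting mouse 17 was the highest, and it was also highest for the summed fibroblast markers, at 843 CPM against 497 to 733 CPM in the others. Cxcl13, which gathers B cells through CXCR5, had 4.01, 5.70 and 4.15 CPM at rest and 3.80, 5.67 and 2.86 CPM after restraint. Its lowest value, in mouse 13, went with the lowest sum of follicle B cell markers, 4.62 CPM against 5.74 to 13.2 CPM. All 5 tested markers of that list of 10 had values below 0, with a median log2 fold change of -0.62, and none passed. Ccl27a, a CCR10 ligand best known from skin, had 57, 61 and 43 counts at rest and 63, 34 and 43 after restraint.

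Of the monocyte chemoattractant genes, Ccl8 spread widely among the stressed mice. Ccl8 had 6.99, 6.40 and 6.58 CPM in the resting mice and 2.21, 4.85 and 11.2 CPM in stressed mice 10, 11 and 13. The resting mice lay within 1.09-fold of each other, whereas the stressed mice spread over 5.10-fold, on both sides of the resting level. The log2 fold change of -0.14 ± 0.43 was -0.92 without mouse 13 (edgeR, unadjusted p = 0.00856, adjusted 0.661) and 0.27 without mouse 10. Ccl2, Ccl7 and Ccl12, which act through CCR2 on monocytes, had 7 to 25 counts in a library. Ccl2 had 9, 12 and 13 counts at rest and 7, 9 and 18 after restraint. Ccl7 had 16, 7 and 22 counts at rest and 12, 24 and 25 after restraint, and Ccl12 had 19, 12 and 23 and then 18, 18 and 23. Each was highest in mouse 13 by CPM. A test of the spread itself was not run.

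Eosinophil and T cell ligands were mostly scarce. Ccl11, eotaxin, which holds eosinophils in gut at rest, had 5.86, 7.10 and 5.64 CPM at rest and 4.72, 7.68 and 6.38 CPM after restraint, a log2 fold change of 0.01 (-0.43 to 0.45). Ccl24, a second eotaxin, had 1, 3 and 2 counts at rest and 8, 7 and 4 after restraint. Ccl17, a CCR4 ligand of dendritic cells, had 1 count in each resting mouse and 7, 2 and 4 in the stressed mice. With Cxcl2, these were 3 of the 10 untested ligand genes with any count whose stressed values all lay above the resting ones. The reverse held for 0. Over all untested genes with a count the shares were 2.9% and 3.07%. That set takes in genes with too few counts for the groups to separate at all, so the shares are not matched for count level. The counts of Ccl24, Ccl17 and Cxcl2 are too few for the filter, and without the filter none passed. Ccl22, the other CCR4 ligand, had 9, 19 and 29 counts at rest and 15, 20 and 39 after restraint. Xcl1, which attracts XCR1-bearing dendritic cells, had 26, 22 and 19 counts at rest and 22, 27 and 21 after restraint.

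The interferon-inducible CXCR3 ligands had their highest sum in stressed mouse 13. Cxcl9 was at 14.2, 7.75 and 17.03 CPM at rest and 9.18, 9.37 and 20.5 CPM after restraint, and Cxcl10 at 4.54, 3.29 and 4.53 CPM and at 4.0002, 3.11 and 6.68 CPM. Mouse 13 was the highest for each, and the other stressed mice lay below resting mice 15 and 19. Cxcl11 had 20, 17 and 12 counts at rest and 10, 16 and 19 after restraint. The log2 fold changes were -0.01, 0.15 and -0.18, none past the threshold. The 250 bases before the Cxcl10 start site (RefSeq, GRCm38.p6, chr5:92348890-92349139, - strand) are shown because Cxcl10 was 1 of 3 ligand genes with the interferon-stimulated response element (TTTC and TTTC with any 2 bases between, on either strand) in this window; 2.98% of all promoters hold it. The first run of capitals is this element on the reverse strand, and the other runs are NF-kB consensus letters. None of these letters, nor the gamma-activated site TTCNNNGAA (7.02% of all promoters), was found in the same window before Cxcl9.
Cxcl10: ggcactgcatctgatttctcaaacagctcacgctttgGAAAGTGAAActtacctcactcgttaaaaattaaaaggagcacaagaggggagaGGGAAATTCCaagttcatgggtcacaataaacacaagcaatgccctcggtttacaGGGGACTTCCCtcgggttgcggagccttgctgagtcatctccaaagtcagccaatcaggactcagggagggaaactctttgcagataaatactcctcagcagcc

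Mouse 13 stood at the top for 9 of the 23 tested ligand genes, 39.1%, where it was at the top for 16.7% of all genes tested. These were Ccl2, Ccl7, Ccl8, Ccl12, Ccl22, Ccl25, Cxcl9, Cxcl10 and Cxcl16. Stressed mouse 10 was the lowest for 7 genes, among them Ccl2 and Ccl8, and for 15% of all genes tested. Some other genes were also highest in this mouse. Of the 19 tested genes of the interferon response list 7 were highest in mouse 13 and 3, Ifit1, Isg15 and Oas1a, were lowest there. Irf1, an interferon-induced transcription factor, was at 298 CPM in mouse 13 and at 192 to 215 CPM in the other mice. The guanylate-binding protein gene Gbp2 was at 103 CPM against 42.8 to 73.7 CPM, and Ciita, the switch of class II genes, at 25.2 CPM against 4.0002 to 12.3 CPM. Irf1, Gbp2 and Ciita are given as examples of genes highest in mouse 13, and Ciita is not on the interferon response list. Summed macrophage and dendritic cell markers were 297 CPM in mouse 13 and 174 CPM in mouse 10, with 215 to 267 CPM in the others. The part of these in the ligand values was not tested. Without mouse 13, 15 of the 23 ligand genes had values below 0; without mouse 10, 7 had.

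**Figure D4:**
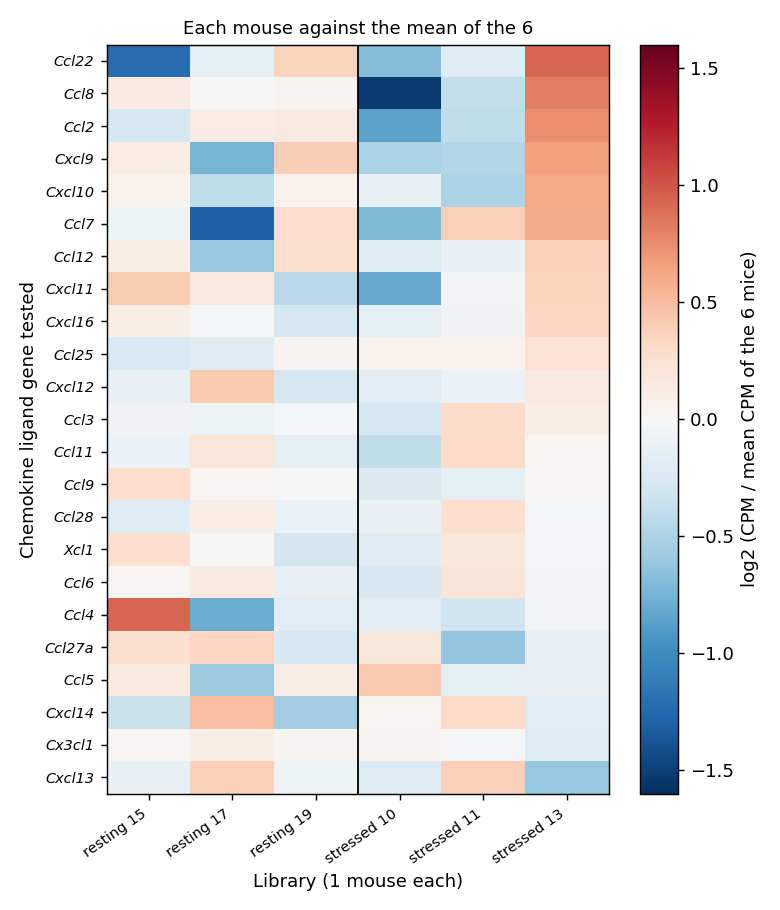
Log2 ratio of each mouse's CPM to the mean of the 6 mice (colour) for the 23 chemokine ligand genes tested, with genes ordered by the ratio in stressed mouse 13 and a line between the resting and stressed mice. Ccl22, Ccl8, Ccl2, Cxcl9 and Cxcl10 are high in mouse 13, and Ccl8 is lowest in mouse 10 at -1.53.

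The tested signalling receptors had lower mean values in stressed mice, none past the threshold. Of 19 receptor genes 12 were tested, and all 12 had log2 fold changes below 0, where 51% of all genes tested did; their median was -0.20 against -0.00 for all genes. The count depended on single mice: it was 8 of 12 with a median of -0.02 without stressed mouse 10, and 9 of 12 without resting mouse 17 or stressed mouse 11. Without stressed mouse 13 it was 12 of 12, with a median of -0.38, so the stressed mice were not alike. Limma-voom gave 11 of 12, and all scalings of the edgeR test 12 of 12. By edgeR 0 of the 12 passed, as with DESeq2 and limma-voom, and 1 had an unadjusted p under 0.05 by each of these. That gene was Cx3cr1, the fractalkine receptor of gut macrophages, at 5.92, 8.28 and 6.19 CPM at rest and 3.90, 3.00 and 5.89 CPM after restraint (log2 fold change -0.68 ± 0.25, unadjusted p = 0.0196, adjusted 0.626 by edgeR). It was the 1 of the 12 tested receptors whose groups did not overlap, where 12.7% of all genes tested did not and 6.58% were lower, with mouse 13 close to the lowest resting mouse.

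Receptors of granulocytes were near 0. Cxcr2 and Cxcr1, the receptors of neutrophils, had 1 and 2 counts in all libraries, and Ccr3, the eotaxin receptor of eosinophils, had 1. Ccr1 and Ccr2, receptors of monocytes and macrophages, had means of 4.58 and 5.39 CPM at rest and 4.01 and 4.52 CPM after restraint, and each was highest in mouse 13 among the stressed mice. Ccr10, which answers to Ccl28, had 1.86 ± 0.337 CPM at rest and 1.77 ± 0.114 CPM after restraint, a log2 fold change of -0.08 (-0.63 to 0.48). Ccr9, which answers to Ccl25, had 30, 28 and 13 counts at rest and 12, 28 and 22 after restraint. The groups overlapped.

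Atypical receptors had higher values in 4 of 5 cases (median log2 fold change 0.23), and none passed. Some of these receptors bind chemokines and remove them without signalling for migration. Ackr4, which scavenges CCL19, CCL21 and CCL25, was the most abundant by CPM, with 8.61, 13.5 and 7.02 CPM at rest and 10.4, 12.5 and 12.4 CPM after restraint. Resting mouse 17 was the highest of all. The 2 CXC ligands whose symbols fall outside the pattern, both of platelets, were low: Pf4 had 1.91 to 3.93 CPM at rest and 2.05 to 3.98 CPM after restraint, and Ppbp at most 2 counts.

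**Figure D5:**
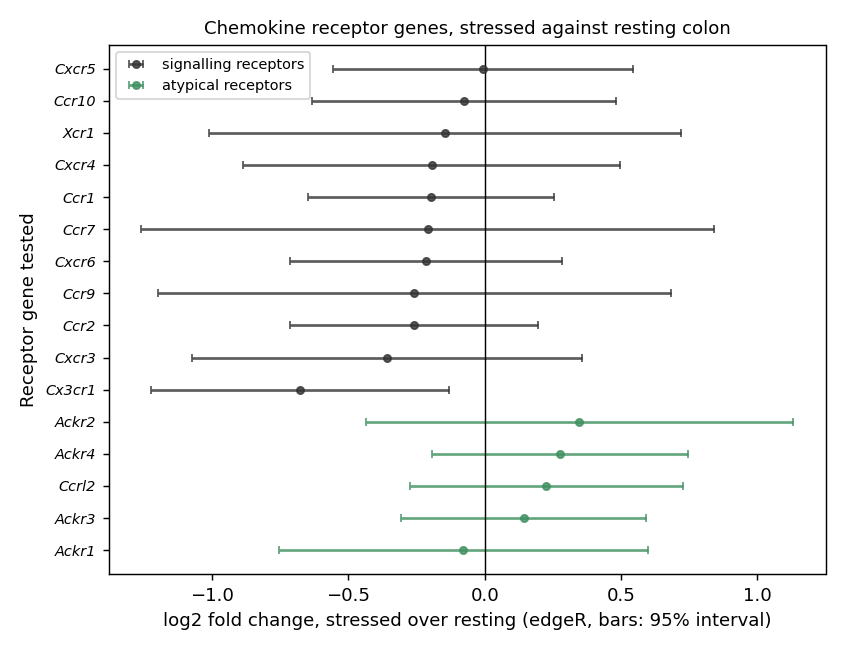
Log2 fold change of stressed over resting colon for 11 of the 12 signalling and all 5 atypical chemokine receptor genes tested (points), with 95% intervals from edgeR (bars) and a line at 0. The signalling receptors plotted lie below 0, from -0.68 for Cx3cr1 to -0.01 for Cxcr5, and every interval but that of Cx3cr1 holds 0.

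No cytokine that induces chemokines passed the threshold. Of 15 such genes 7 were tested, 6 had higher and 1 lower values. The lower one was Il18, interleukin-18, which was the most abundant of them by CPM, at 15.9, 17.2 and 19.96 CPM at rest and 10.7, 19.2 and 6.93 CPM after restraint, lowest in mouse 13. Il1b, interleukin-1 beta, was at 0.478, 0.939 and 0.829 CPM at rest and 1.90, 1.14 and 3.28 CPM after restraint (log2 fold change 1.47 ± 0.43, edgeR adjusted p = 0.494). All stressed mice lay above the resting ones, with mouse 13 the highest. Tnf was at 1.32, 1.41 and 1.88 CPM at rest and 1.74, 1.96 and 2.92 CPM after restraint. Ifng, Il6, Il17a and Il22 were under the filter, the last 3 with at most 4 counts in a library.

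Of the 14 genes in the NF-kB response list all were tested, 8 higher and 6 lower, with a median log2 fold change of 0.01; Nfkbia, the inhibitor that NF-kB induces, had 0.43 (adjusted p = 0.278 by edgeR). The interferon response list had 19 of 20 genes tested, 15 higher and 4 lower, with a median of 0.12 and none past the threshold. At an unadjusted p under 0.05 edgeR had 7 of the 19, against 6.92% of all genes tested. The groups did not overlap for 4, against 12.7% of all genes tested. The 4 genes with the smallest p were Ifit3 (0.54), Zbp1 (0.43), Irf7 (0.28) and Rsad2 (-0.33). Mouse 13 was the highest for Zbp1, at 200 CPM against 124 to 183 CPM in the other mice. It was not the highest for Ifit3, Irf7 or Rsad2, with Ifit3 at 63.3 CPM against 72.5 and 72.1 CPM in mice 10 and 11.

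Markers of cells that make or answer to chemokines are given as counts of genes with higher and lower values among those tested, and none passed the threshold in any of these lists. Immune markers were mixed: 5 higher and 3 lower for plasma cells, 5 and 7 for T cells, 4 and 8 for macrophages and dendritic cells, and 1 and 1 for eosinophils. The 1 tested marker each of neutrophils and mast cells was lower. Stromal markers were 1 higher and 7 lower for fibroblasts, 1 and 3 for stroma of lymphoid follicles, 7 and 1 for smooth muscle, 0 and 8 for blood endothelium and 6 and 0 for lymphatic endothelium. Epithelial markers were 7 higher and 2 lower for colonocytes, and 0 and 4 for epithelium over follicles. Adipocyte markers were 8 higher and 0 lower, mesothelial markers 6 and 0, with a median log2 fold change of 1.34, and platelet and blood markers 6 and 0, with a median of 1.28. Both tested markers of distal colon were lower (median -1.55). Cytokine receptors were 8 higher and 4 lower, and proteases that cut chemokines 2 and 3. The part of these in the ligand values was not tested.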

How the data were processed

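RNA-seq counts of colon from 3 resting and 3 stressed mice were used as deposited. Per the labels' protocols, poly(A) RNA was made into stranded libraries; per the submitters' processing notes, fastp, HISAT2 and the mm10 build were used. The sources used here do not name the counter, annotation or strand setting, so overlapping genes are uncertain. The deposited table holds raw counts for 43432 identifiers, 42462 of which matched a symbol; positions and merged exon lengths are from GENCODE M21.

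All genes were fitted together with edgeR 4.0.16 (R 4.3.3; quasi-likelihood F test, TMM scaling, filterByExpr with minimum count 10 and minimum total 15) and p-values adjusted by Benjamini-Hochberg over the 16119 genes tested, with a threshold of 0.05. Alternatives were DESeq2 1.42.0, limma-voom (limma 3.58.1), other scalings and filters, and each mouse left out. Replicates are separate mice by their labels. No pair of libraries within a group looked like copies (chi-square per gene 7.78 to 18.2). The fit was tested on simulated counts. All 38 members are reported: those tested with values or ranges, the 10 highest at rest and those with unadjusted p under 0.05 or separate groups in detail, and up to 4 genes of the other lists by smallest p or where a ligand result turns on them. The values of 1 receptor gene are not reported here. The members and lists were chosen with earlier results of these data known.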

Additional observations from a re-analysis of the deposited data

How the results depend on the processing

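No paired analysis was possible because the groups share no mouse number. The ligand and receptor genes changed stayed at 0 under all 13 alternatives. All genes changed numbered 5; DESeq2 gave 56, limma-voom 3 and edgeR without the filter 151, and 1 to 14 changed with a mouse left out (1 without resting mouse 15 or stressed mouse 10, 14 without stressed mouse 11). The median log2 fold change of the ligand genes, -0.01, was 0.10 with DESeq2 and 0.10 without the filter, which take in genes of few counts (33 ligand genes), and lay between -0.0467 and 0.185 with a mouse left out, highest without stressed mouse 10. Of 296 single-gene values 257 kept their direction and 39 changed sign, 34 of them with a mouse left out; the cause was not tested. Ccl7, Ccl9, Ccl25, Ccl27a and Cx3cl1 never changed sign. Without a mouse the log2 fold change ranged from -0.16 to 0.0711 for Ccl6, -0.0763 to 0.27 for Ccl5, -0.0155 to 0.21 for Ccl28, -0.92 to 0.27 for Ccl8, -0.17 to 0.18 for Ccl11, -0.20 to 0.17 for Cxcl12, -0.49 to 0.25 for Cxcl9, -0.47 to 0.033 for Cxcl13, -0.0339 to 0.22 for Cxcl16 and -0.0447 to 0.53 for Cxcl14. It ranged from -0.14 to 0.15 for Xcl1, -0.14 to 0.25 for Ccl12, -0.21 to 0.37 for Cxcl10, -0.65 to 0.27 for Ccl4, -0.0278 to 0.26 for Ccl3, -0.62 to 0.26 for Ccl2, -0.24 to 0.75 for Ccl22 and -0.46 to 0.0887 for Cxcl11. Ccl11 was -0.0134 with limma-voom and -0.0194 with library totals, Cxcl9 0.0063 with DESeq2 and 0.000114 with upper quartile scaling, and Xcl1 0.00323 with limma-voom. Detection in resting colon (26 genes) was 19 or 31 by the other minimums, and the first 10 of the resting order shared 8 to 10 genes with the other orders. Depth limits the genes with too few counts to test, 15 of the 38, and also tested genes near 10 counts a library, such as Ccl2 and Ccl3.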
